A study of Mus musculus with 12 samples.

Results

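The 10 genes described here make up the core of the MHC class I antigen presentation pathway: the heavy chains H2-K1 and H2-D1, the shared light chain B2m, the peptide transporter subunits Tap1 and Tap2, the loading chaperone Tapbp, the immunoproteasome subunits Psmb8 and Psmb9, the peptide-trimming aminopeptidase Erap1, and the transcriptional regulator Nlrc5. They were taken by name, with their Ensembl identifiers mapped to symbols, and all 10 were found among the 46517 genes listed. All 10 also passed the filter on low values that left 15673 genes for testing. In mouse embryonic stem cells (ESCs) with a deletion of the Meteor enhancer, transcripts of each of the 10 genes were lower on average than in wild-type cells, both before differentiation and at day 3. The genes had been proposed with results of these samples in view, so their own differences are given as a description, without p-values.

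The 12 libraries form 4 groups of 3 replicates: WT and Meteor KO cells, each at day 0 and at day 3 of differentiation. Both genotypes come from an Eomes-EGFP reporter ESC line, labelled as C57BL/6 and grown on mouse embryonic fibroblast feeders. In the KO cells the Meteor locus, a transcribed enhancer upstream of the mesendoderm gene Eomes, was removed with the CRISPR-Cas9 nickase, and clones were picked after puromycin selection. Day 3 samples are embryoid bodies grown from hanging drops under a cardiac differentiation protocol. The labels do not say how many clones or separate cultures stand behind the 3 replicates of a group, so the errors and p-values measure the spread between these samples, and effects of the deletion and of clonal origin cannot be told apart. The 2 lncRNAs annotated at the Meteor locus matched the labels: Platr11 had between 11 and 112 counts in each WT library and between 0 and 1 in each KO library, and 2610509F24Rik had between 29 and 107 in WT and 0 in every KO library.

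The libraries held from 17455927 to 23910943 reads assigned to genes. Pluripotency markers (Pou5f1, Nanog, Sox2, Zfp42 and Esrrb) summed to between 2366 and 2738 CPM (a read count corrected for the size of its library) in WT at day 0 and between 3127 and 3362 in KO. At day 3 they summed to between 585 and 1110 CPM in WT and between 1089 and 1183 in KO. Primitive streak and mesendoderm markers (T, Eomes, Mixl1, Mesp1 and Gsc) reached between 609 and 1411 CPM in WT at day 3 and between 73.3 and 148 CPM in KO. At day 0 the same sum was 145 CPM in WT replicate 3, against 69.5 and 39.1 CPM in the other WT replicates and between 51.3 and 67.0 CPM in KO, and T, the brachyury gene, stood at 77.4 CPM in that replicate against 4.64 and 6.42 CPM. WT replicate 3 of day 3 also stood apart, with the lowest streak sum and 83.8 CPM of endothelial markers against 7.22 and 7.93 CPM in the other WT replicates. At day 3 the genotype and the cells present therefore differ together and cannot be told apart.

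MHC class I molecules display peptides from the inside of a cell to CD8 T cells. The proteasome, with its interferon-inducible subunits when these are made, cuts proteins into peptides, TAP carries the peptides into the endoplasmic reticulum, ERAP1 trims them, and tapasin loads them onto a heavy chain bound to beta-2-microglobulin. NLRC5 acts together with factors bound at the conserved SXY module of class I promoters, and interferons raise the pathway through IRF1 among other factors. Undifferentiated ESCs are known for low surface class I.

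Of the 10 genes, 7 lie on chromosome 17 of GRCm38, within the MHC. Tapbp lies at 33915899-33929292, H2-K1 at 33996017-34000347, Psmb9 at 34181987-34187764, Tap1 at 34187553-34197225, Psmb8 at 34197721-34201454, Tap2 at 34203527-34216321 and H2-D1 at 35262730-35267499. B2m is on chromosome 2 at 122147686-122153083, Nlrc5 on chromosome 8 at 94434356-94527272 and Erap1 on chromosome 13 at 74639568-74693201.

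The promoters of the classical class I genes carry the elements through which NLRC5, NF-kB and interferon act on them, and they are shown to let the letters be read beside the levels. RefSeq promoter sequences (GRCm38.p6) were at hand for 8 of the 10 genes, all but Tap2 and Nlrc5. The 250 bases before the RefSeq start were searched on both strands for 4 short motifs, chosen after these sequences had been seen: the Y box core ATTGG, the CRE core TGACG of the X2 box, a kB pattern of GGG, any 2 bases, TT, any base and CC, and the IRF element GAANNGAAA. No 2 of the printed matches overlap. Each sequence below reads 5′ to 3′ on the gene's own strand, with the matches in capitals, for H2-K1 (chr17:34000348-34000597, minus strand), H2-D1 (chr17:35262844-35263093, plus strand) and B2m (chr2:122147437-122147686, plus strand).
H2-K1: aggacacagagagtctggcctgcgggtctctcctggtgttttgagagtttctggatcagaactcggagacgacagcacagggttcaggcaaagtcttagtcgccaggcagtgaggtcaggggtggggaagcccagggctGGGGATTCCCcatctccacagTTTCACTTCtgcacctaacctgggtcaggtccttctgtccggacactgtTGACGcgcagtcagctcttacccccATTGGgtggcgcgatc
H2-D1: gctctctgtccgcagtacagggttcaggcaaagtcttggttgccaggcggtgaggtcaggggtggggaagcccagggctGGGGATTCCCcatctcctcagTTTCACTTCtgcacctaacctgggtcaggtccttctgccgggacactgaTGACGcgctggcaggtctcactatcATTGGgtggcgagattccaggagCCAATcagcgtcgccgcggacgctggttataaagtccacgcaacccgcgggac
B2m: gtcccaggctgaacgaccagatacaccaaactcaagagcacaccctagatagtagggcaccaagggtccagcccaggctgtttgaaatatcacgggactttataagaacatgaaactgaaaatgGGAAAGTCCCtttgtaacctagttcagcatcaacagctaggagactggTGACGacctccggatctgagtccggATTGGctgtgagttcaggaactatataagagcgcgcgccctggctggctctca

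H2-K1 and H2-D1 held all 4 motifs in the same order, and their kB matches and their IRF matches had the same letters. B2m held the kB, CRE core and Y box letters and no match to the IRF pattern as searched. Shortly before its kB match it reads gaaactgaaa, with a longer gap between GAA and GAAA than that pattern allows. Other spacings were not searched, so the missing match does not show that B2m lacks an IRF element. Among all 27025 promoters of the same length, 34.464% held the Y box letters, 17.861% the CRE core, 4.004% the kB pattern, 6.339% the IRF element and 0.033% all 4. These are matches of letters, not sites shown to be bound.

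Psmb9 and Tap1 are transcribed away from each other, and their RefSeq starts enclose 1 short stretch of 225 bases (chr17:34187331-34187555, shown on the plus strand, toward Tap1).
Psmb9-Tap1: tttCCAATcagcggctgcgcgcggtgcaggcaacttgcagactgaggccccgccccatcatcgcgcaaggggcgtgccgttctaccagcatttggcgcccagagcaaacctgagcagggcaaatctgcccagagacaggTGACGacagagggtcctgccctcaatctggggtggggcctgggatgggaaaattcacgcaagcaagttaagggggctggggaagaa
It held 1 Y box and 1 CRE core and neither of the other motifs. Tapbp held 2 Y boxes and no other motif, and the windows of Psmb8 and Erap1 held none of the 4. Only 1 RefSeq start per gene was searched. The windows of H2-D1, Tapbp, Psmb8, Psmb9 and Erap1 lie inside the annotated spans of these genes, whose other starts were not searched.

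**Figure D1:**
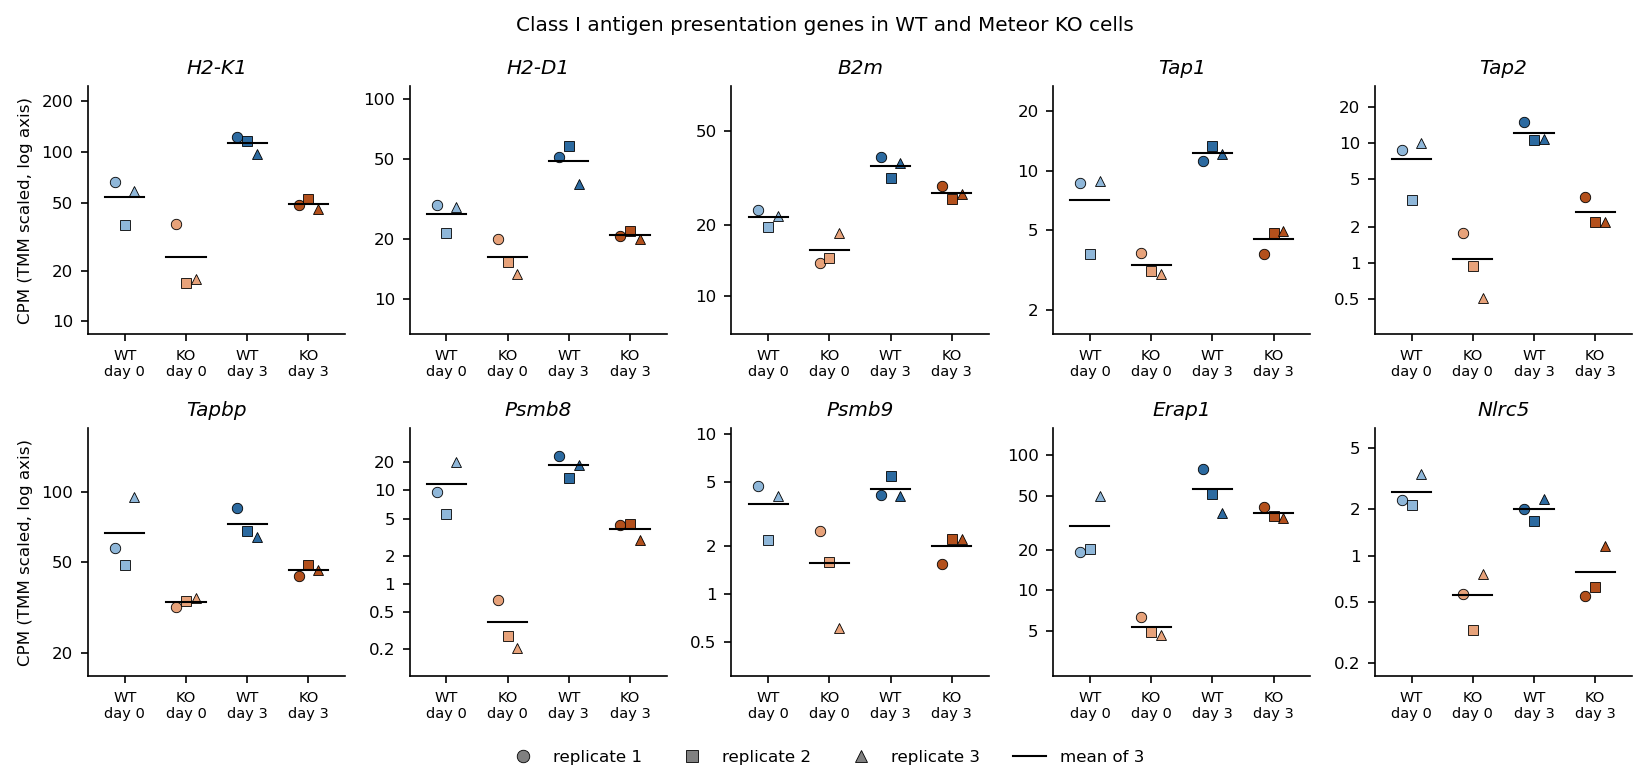
Expression of the 10 genes in every sample, as CPM scaled by the trimmed mean of M values (TMM) on log axes whose ranges differ between panels. Points are replicates 1 to 3 of each group and bars are group means; the 3 KO values lie below the 3 WT values for 7 genes at day 0 and for 9 genes at day 3.

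The heavy chains are the subunits that hold the peptide. H2-K1 had 66.7, 37.0 and 59.3 CPM in WT replicates 1, 2 and 3 at day 0 and 37.7, 16.9 and 17.7 CPM in KO. KO replicate 1 lay just above WT replicate 2, so the groups overlapped, while each KO sample lay below the WT sample of its own number. By day 3 it had 123, 117 and 98.0 CPM in WT and 48.9, 52.7 and 46.3 CPM in KO, with no overlap. KO differed from WT by a log2 fold change of -1.21 (standard error 0.24) at day 0 and -1.18 (standard error 0.24) at day 3. H2-K1 thus kept about the same distance between the genotypes while it went up with differentiation in each, by 1.08 (standard error 0.24) in WT and 1.11 (standard error 0.24) in KO on the log2 scale.

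H2-D1 had 29.6, 21.3 and 28.8 CPM in WT at day 0 and 19.9, 15.3 and 13.3 CPM in KO. Values at day 3 were 51.2, 58.4 and 37.4 CPM in WT and 20.7, 21.8 and 19.9 CPM in KO. The genotypes did not overlap at either day, and the KO samples of day 3 stood at the level of the lowest WT sample of day 0. The KO effect on the log2 scale was -0.73 (standard error 0.18) at day 0 and -1.22 (standard error 0.18) at day 3. H2-D1 went up by 0.87 (standard error 0.18) from day 0 to day 3 in WT and by 0.38 (standard error 0.18) in KO, where the days overlapped. Of the 100-base words of its longest transcript, 4.64% also occur in other genes, among them H2-Q1, H2-T23 and a class I pseudogene. Reads from there could not be assigned. The longest transcript of H2-K1 shared none, although another H2-K1 transcript shares words with H2-Q10.

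B2m, the light chain that every class I heavy chain needs to reach the surface, differed least. It had 23.2, 19.6 and 21.9 CPM in WT at day 0 against 13.8, 14.6 and 18.5 CPM in KO, and 38.7, 31.7 and 36.6 CPM in WT at day 3 against 29.2, 25.8 and 27.1 CPM in KO. All 4 groups were apart from their neighbours in the order WT day 3, KO day 3, WT day 0, KO day 0. The KO effect was -0.46 (standard error 0.12) at day 0 and -0.38 (standard error 0.12) at day 3 on the log2 scale.

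Tap1 and Tap2 form the transporter that moves peptides into the endoplasmic reticulum. Tap1 had 8.68, 3.81 and 8.88 CPM in WT at day 0 and 3.87, 3.14 and 3.01 CPM in KO, with WT replicate 2 among the KO values. At day 3 it had 11.1, 13.3 and 12.2 CPM in WT and 3.80, 4.83 and 4.995 CPM in KO, well apart. Tap2 had 8.74, 3.39 and 10.1 CPM in WT at day 0 and 1.79, 0.94 and 0.51 CPM in KO. At day 3 its values were 15.1, 10.8 and 10.9 CPM in WT and 3.55, 2.22 and 2.21 CPM in KO. WT replicate 2 of day 0 was thus low for both subunits, and it still lay above all KO samples of that day for Tap2. On the log2 scale the KO effect for Tap1 was -1.06 (standard error 0.30) at day 0 and -1.43 (standard error 0.29) at day 3. For Tap2 it was -2.79 (standard error 0.40) and -2.23 (standard error 0.36), a larger difference than for its partner at both days.

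Tapbp encodes tapasin, which bridges the transporter and the empty class I molecule. It had 57.1, 48.4 and 94.9 CPM in WT at day 0 and 31.9, 33.8 and 34.7 CPM in KO. At day 3 it had 85.7, 67.9 and 64.2 CPM in WT and 43.3, 48.5 and 46.2 CPM in KO. The KO replicates lay close together at both days and below every WT sample of the same day. The log2 fold change of KO against WT was -0.97 (standard error 0.21) at day 0 and -0.66 (standard error 0.20) at day 3, and the days differed little within WT, by 0.15 (standard error 0.20).

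Psmb8 and Psmb9 encode catalytic subunits that replace their constitutive counterparts Psmb5 and Psmb6 when the immunoproteasome is assembled. Psmb8 showed the widest separation of the 10 genes at day 0, with 9.61, 5.58 and 20.4 CPM in WT and 0.67, 0.28 and 0.20 CPM in KO, the latter from only 4 to 12 reads per library. At day 3 it had 23.4, 13.6 and 18.7 CPM in WT and 4.30, 4.38 and 2.91 CPM in KO. The genotypes were far apart at both days, while the KO samples of day 3 stood well above those of day 0. The log2 fold change of KO against WT was -4.89 (standard error 0.55) at day 0 and -2.21 (standard error 0.42) at day 3, and without WT replicate 3 of day 0 the former was -4.19. Within KO cells Psmb8 went up by 3.38 (standard error 0.56) from day 0 to day 3, and by 3.97 without KO replicate 1 of day 0.

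In the edgeR fit of all 12 samples, Psmb9 was the gene of the 10 whose KO effect passed an adjusted p below 0.05 at neither day. Its values were 4.75, 2.19 and 4.12 CPM in WT and 2.47, 1.60 and 0.61 CPM in KO at day 0. At day 3 they were 4.15, 5.49 and 4.10 CPM in WT and 1.55, 2.22 and 2.21 CPM in KO. The groups overlapped at day 0 and were apart at day 3, on 12 to 114 reads per library. Its log2 fold change in KO against WT was -1.28 (standard error 0.45) at day 0 and -1.18 (standard error 0.43) at day 3.

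Erap1 trims peptides to the length that fits the groove. It had 19.4, 20.4 and 50.2 CPM in WT at day 0 and 6.39, 4.96 and 4.65 CPM in KO. Values at day 3 were 79.6, 51.9 and 37.5 CPM in WT and 41.5, 35.3 and 34.5 CPM in KO, where the highest KO sample exceeded the lowest WT sample. WT was the more scattered group at each day, with a coefficient of variation of 58.4% at day 0 and 38.0% at day 3 against 17.4% and 10.3% in KO. The log2 fold change of KO against WT was -2.48 (standard error 0.40) at day 0 and -0.60 (standard error 0.35) at day 3, and without WT replicate 3 of day 0 the former was -1.78. In KO cells Erap1 went up by 2.80 (standard error 0.40) between the days, and in WT cells by 0.91 (standard error 0.37), or by 1.58 without that replicate.

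Nlrc5, the NOD-like receptor that acts as the transactivator of class I genes, was a rare transcript, counted 6 to 64 times per library. It had 2.29, 2.14 and 3.38 CPM in WT at day 0 and 0.56, 0.33 and 0.77 CPM in KO. At day 3 it had 2.01, 1.68 and 2.33 CPM in WT and 0.55, 0.63 and 1.17 CPM in KO. All WT values of either day lay above all KO values of either day. KO differed from WT by a log2 fold change of -2.24 (standard error 0.29) at day 0 and -1.40 (standard error 0.27) at day 3. Nlrc5 was the single gene of the 10 whose WT mean was lower at day 3 than at day 0, by a log2 fold change of -0.35 (standard error 0.25) with overlapping values, whereas in KO cells the change was 0.49 (standard error 0.31).

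Ordered by group mean, 7 of the 10 genes ran from WT day 3 through WT day 0 and KO day 3 to KO day 0. B2m and Erap1 ran from WT day 3 through KO day 3 and WT day 0 to KO day 0, and Nlrc5 from WT day 0 through WT day 3 and KO day 3 to KO day 0. Neighbouring groups in these orders often overlapped. For H2-K1, H2-D1, Tap1 and Tap2 the samples of WT day 3 were apart from those of WT day 0, which overlapped with KO day 3. For Tapbp, Psmb8, Psmb9, Nlrc5 and Erap1 the leading groups of the order overlapped. Psmb9 overlapped at every step.

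Levels of different genes were compared per kilobase of annotated exon. In WT cells at day 0, B2m had a mean level of 25.1 CPM per kb, H2-K1 18.5, Tapbp 18.4 and H2-D1 10.3. The next were Erap1 at 4.12, Psmb8 at 3.51, Tap2 at 1.96, Tap1 at 1.301 and Psmb9 at 1.01 CPM per kb, and Nlrc5 was lowest at 0.307. The heavy and light chain transcripts and tapasin were thus the abundant ones, and the transporter, immunoproteasome and regulator transcripts the scarce ones. The length used here takes in all annotated exons of a gene. It was 2938 bases for H2-K1 and 3381 for Psmb8, whose longest transcripts have 1874 and 1907 bases. The order of genes with close levels therefore depends on this choice, as do the sizes of the subunit ratios given below.

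In KO cells at day 0, 9 of the 10 genes passed an adjusted p below 0.05 as lower than in WT, all but Psmb9, where 10.9% of all 15673 tested genes did. At day 3, 8 passed as lower, all but Psmb9 and Erap1, where 16.7% of all tested genes did. KO and WT values did not overlap for 7 genes at day 0 and 9 at day 3, against 17.4% and 23% of all tested genes that were apart in this direction. All 10 genes were lower in each of the 3 same-numbered pairs of samples at both days. With 1 library left out, between 6 and 9 genes passed at either day, and 6 passed at day 0 without WT replicate 1 or 3 or KO replicate 2 or 3 of that day. All 10 passed at day 0 with DESeq2, with no filter on low counts, or with only the 6 samples of that day. They also did with same-numbered samples paired separately at each day. With no replicate block, limma-voom or another scaling the count was 9. At day 3 these settings gave between 7 and 10. With at least 10 counts in every sample it was 7 of 8 at day 0 and 6 of 8 at day 3. Because these contrasts are among those the genes were chosen on, nothing is read from the shares. The median log2 fold change of the 10 genes was -1.25 at day 0 and -1.20 at day 3, beside -0.01 and -0.00 over all tested genes. Leaving out 1 library at a time gave medians between -1.67 and -0.99 at day 0 and between -1.34 and -1.01 at day 3.

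From day 0 to day 3 the mean level was higher for all of the 10 genes but Nlrc5 in WT, and for all 10 in KO. In WT, 4 of them passed as higher (H2-K1, H2-D1, B2m and Tap1), where 30.7% of tested genes did, and none passed as lower. The WT count was 8 without WT replicate 3 of day 0, between 3 and 5 without any other library, and 7 with limma-voom. In KO, 5 passed as higher (H2-K1, B2m, Tap2, Psmb8 and Erap1), where 29.4% did, and between 4 and 6 with 1 library left out. The median log2 fold change was 0.75 in WT and 0.65 in KO, beside 0.07 and 0.03 over all tested genes. These contrasts share their samples with the KO contrasts, and their values are given side by side only.

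**Figure D2:**
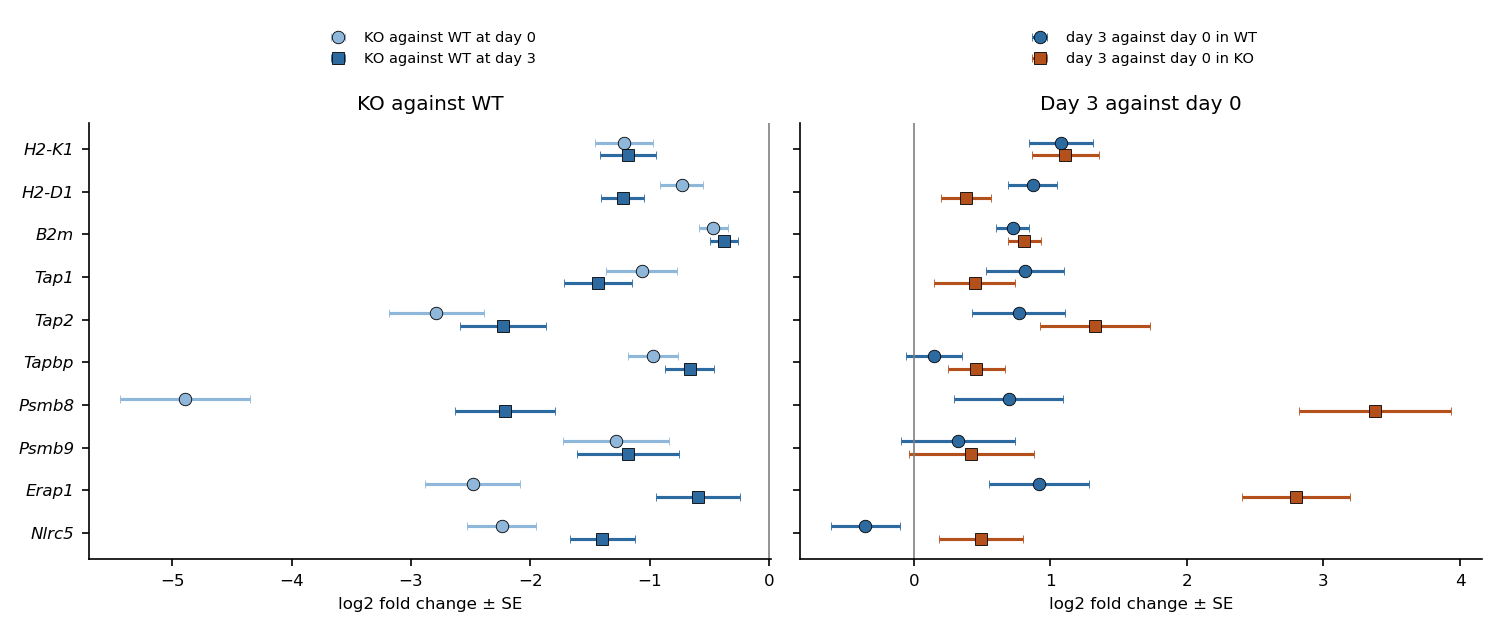
Log2 fold changes of the 10 genes with standard errors, for KO against WT at each day (left) and for day 3 against day 0 in each genotype (right). All KO effects lie left of 0, from -4.89 for Psmb8 at day 0 to -0.38 for B2m at day 3, and the day effects in KO are widest for Psmb8 (3.38) and Erap1 (2.80).

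The difference between the KO effects of day 3 and day 0 on the log2 scale was 2.68 (standard error 0.69) for Psmb8 and 1.89 (standard error 0.53) for Erap1, both toward a smaller KO effect at day 3. It was 0.85 (standard error 0.40) for Nlrc5, and for the other 7 genes it lay between -0.49 for H2-D1 and 0.56 for Tap2. As the members were known to differ, this is again a description.

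The other class I heavy chain genes are not among the 10, but their list too was drawn up with results of these samples known. Of 18 listed, 13 had enough reads. At day 0, 5 of them fell in KO cells and 1 rose, where 10.9% of all tested genes were called lower and 9.56% higher, and at day 3 again 5 fell and 1 rose, where 16.7% and 14.3% were. The median log2 fold change of the 13 was -0.99 at day 0 and -0.79 at day 3. H2-T10 and H2-T22, close relatives that are recognised by gamma delta T cells, fell at both days. H2-T22 had 7.10, 6.68 and 7.50 CPM in WT at day 0 against 2.41, 1.21 and 1.58 in KO, a change of -2.06 on the log2 scale (adjusted p = 0.000316 in edgeR, standard error 0.21), and -0.81 (standard error 0.19, adjusted p = 0.00925) at day 3. H2-T10 had 1 or 2 reads in each KO library at day 0, so that WT exceeded KO by a ratio of 14.6 with a 95% interval of 5.98 to 46.2 for counting error alone (adjusted p = 0.000531 in edgeR), and at day 3 it fell by 1.85 on the log2 scale (standard error 0.29, adjusted p = 0.00143).

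Genes of the Qa region were divided. H2-Q6 fell by 1.80 (standard error 0.44, adjusted p = 0.0174 in edgeR) at day 0 and by 2.05 (standard error 0.37, adjusted p = 0.00285) at day 3 on the log2 scale. The day 0 call for H2-Q6 was lost without WT replicate 1 or 3, or KO replicate 2 or 3, of that day, with adjusted p up to 0.0833. H2-Q7, which encodes the Qa-2 antigen, fell by 1.76 at day 3 (standard error 0.50, adjusted p = 0.0246), a call lost without WT replicate 2 or 3 or KO replicate 1 or 2 of that day, with adjusted p up to 0.0950. H2-Q2 went opposite ways at the 2 days. It had 2.73, 0.73 and 1.43 CPM in WT at day 0 and 0.22, 0.22 and 0.31 in KO, a change of -2.66 on the log2 scale (standard error 0.57, adjusted p = 0.00999), and at day 3 3.50, 5.63 and 3.72 CPM in WT and 9.15, 15.1 and 14.4 in KO, a change of 1.59 on the log2 scale (standard error 0.39, adjusted p = 0.0131). The latter call was lost without KO replicate 2 or 3 of day 3, with adjusted p up to 0.0796. The test of the difference between the days gave 4.25 for H2-Q2 (standard error 0.69, adjusted p = 0.00382). Between 2.24% and 12.9% of the 100-base words in the longest transcripts of H2-Q4, H2-Q6, H2-Q7, H2-Q10, H2-T10, H2-T22 and H2-T23 recur in other genes. Reads from there are not in these counts. The longest transcript of H2-Q2 shared none, although another H2-Q2 transcript shares words with H2-Q1. H2-Q4 also fell at day 0 (-1.54, standard error 0.33), H2-Q10 at day 3 (-1.18, standard error 0.35), and H2-M5 rose at day 0 (1.06, standard error 0.23). The calls for H2-Q4 and H2-M5 were lost without KO replicate 2 of day 0, that for H2-M5 also without KO replicate 3, and that for H2-Q10 in 5 of the 12 fits that left out 1 library. H2-Q1, H2-T3, H2-T24, H2-M2 and H2-M9 were too low to test.

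Genes outside the 10 that make, guide and trim peptides were tested as a second list. Of 15, all tested, 9 fell and 2 rose in KO cells at day 0, and 3 fell at day 3. Of all tested genes 10.9% were called lower and 9.56% higher at day 0, and 16.7% and 14.3% at day 3. The genes that rose were Lap3, a leucine aminopeptidase, by 0.67 (standard error 0.07) and Lnpep, an endosomal aminopeptidase, by 0.55 (standard error 0.15) on the log2 scale, the latter call lost in 4 of the 12 fits that left out 1 library. The KO effect differed between the days for 6 of the 15, where 15.5% of all tested genes did. Psmb10, the third subunit particular to the immunoproteasome, had 33.4, 39.6 and 69.0 CPM in WT at day 0 and 14.1, 14.6 and 16.4 in KO, a change of -1.63 on the log2 scale (adjusted p = 0.00181 in edgeR, standard error 0.24), and at day 3 the change was -0.50 (standard error 0.23, adjusted p = 0.131). Psme1 and Psme2, the subunits of the PA28 activator that caps the proteasome, fell by 0.97 (standard error 0.15, adjusted p = 0.00194) and 1.29 (standard error 0.20, adjusted p = 0.00225) at day 0. Their KO samples overlapped with WT at day 3, with log2 fold changes of 0.01 and -0.34. For Psme1 the KO effect differed between the days by 0.97 (standard error 0.20, adjusted p = 0.0118), a call that held in each fit that left out 1 library. Tapbpl, a second peptide editor related to tapasin, fell by 1.55 at day 0 (standard error 0.39, adjusted p = 0.0202), a call lost without WT replicate 3 or KO replicate 2 or 3 of that day, with adjusted p up to 0.102.

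Canx, the chaperone calnexin that folds new heavy chains, fell by 0.57 (standard error 0.11, adjusted p = 0.0037 in edgeR) at day 3, when Blmh, a cytosolic peptidase, fell by 0.45 (standard error 0.10, adjusted p = 0.00812) and Psme3, a nuclear proteasome activator, by 0.29 (standard error 0.08, adjusted p = 0.0261). The day 3 call for Psme3 was lost in 5 of the 12 fits that each left out 1 library. That for Blmh was lost without KO replicate 3 of day 3. These genes were also called lower at day 0 in edgeR. Canx fell by 0.54 (adjusted p = 0.00671), Blmh by 0.47 (adjusted p = 0.00966) and Psme3 by 0.39 (adjusted p = 0.00944). The day 0 call for Canx held in each such fit, and those for Blmh and Psme3 were lost without WT replicate 3 or KO replicate 2 of that day. Taking both lists of other class I genes as 1 set of 33 genes, of which 28 were tested, 17 were called at day 0 and 9 at day 3. At day 0 they were 14 lower and 3 higher, where 10.9% and 9.56% of all tested genes were. At day 3 they were 8 lower and 1 higher, where 16.7% and 14.3% were. The day 0 count went to 9 without KO replicate 2, 10 without WT replicate 3 and 11 without KO replicate 3 of day 0. At day 3 the count went to 5 without KO replicate 2 or KO replicate 3 of that day, and to 16 with a replicate block within each day, the fit in which same-numbered samples are paired separately at day 0 and day 3.

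**Figure D3:**
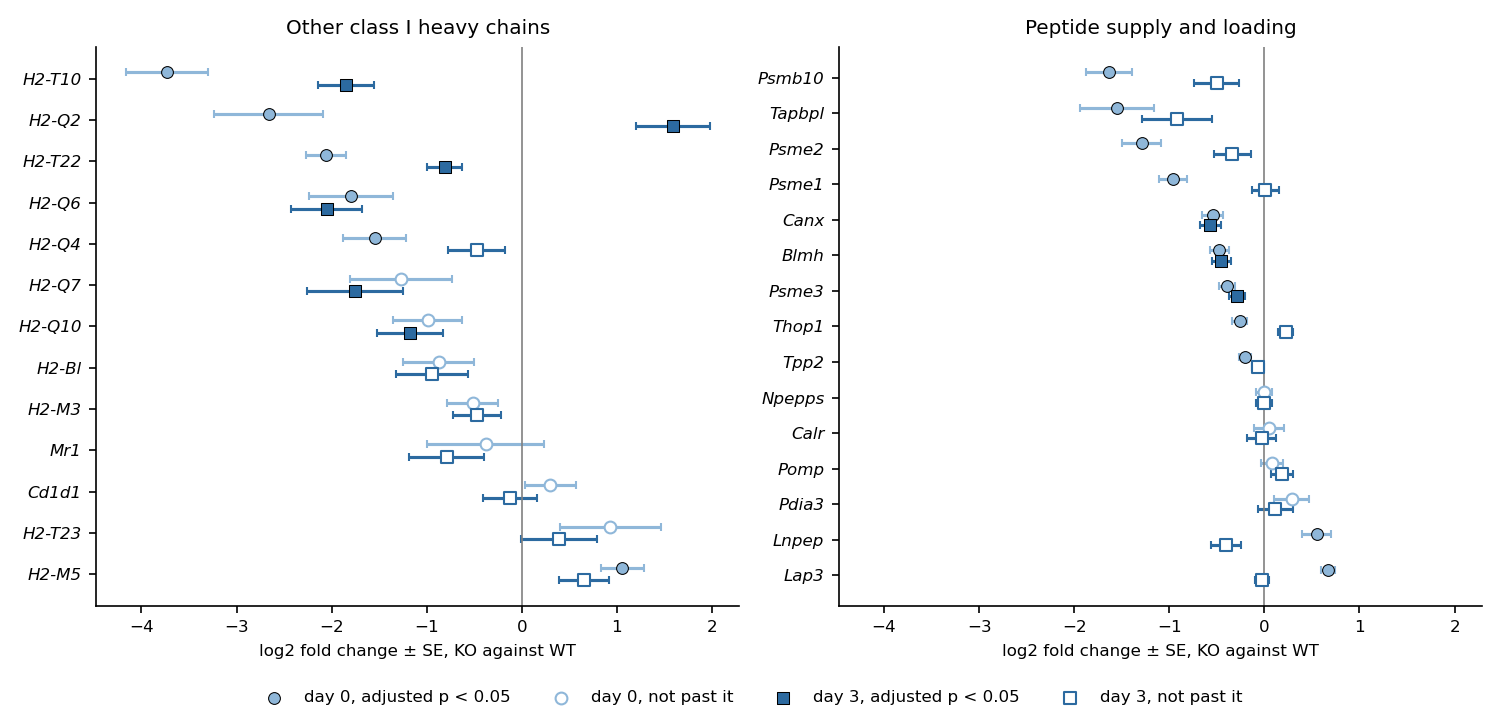
Log2 fold changes of KO against WT with standard errors for the 13 tested other class I heavy chains (left) and the 15 genes of peptide supply and loading (right), at day 0 (circles) and day 3 (squares). Filled symbols passed an adjusted p below 0.05 in edgeR; most heavy chains lie left of 0 at both days, H2-Q2 lies on opposite sides, and Psmb10, Psme1 and Psme2 lie left of 0 at day 0 and nearer to it at day 3.

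The constitutive proteasome was tested beside its immune form. Of 14 subunits of the 20S core, all tested, 1 fell at day 0, and at day 3 Psmb6 and Psmb3 fell and Psma7 rose. Over all tested genes 10.9% fell at day 0, and 16.7% fell and 14.3% rose at day 3. The call for Psmb3 was lost in 5 of the 12 fits that left out 1 library, with adjusted p up to 0.169 in edgeR. Psmb6, which Psmb9 replaces, fell by 0.35 (standard error 0.10, adjusted p = 0.0297 in edgeR) and 0.47 (standard error 0.10, adjusted p = 0.00569), and the day 0 call was lost in 5 of the 12 fits that left out 1 library, with adjusted p up to 0.133. Psmb5 and Psmb7, the counterparts of Psmb8 and Psmb10, had log2 fold changes of 0.06 (standard error 0.10) and -0.03 (standard error 0.08) at day 0 and of 0.21 (standard error 0.10) and 0.01 (standard error 0.08) at day 3. The level of Psmb8 per kb of exon was 7.98% ± 4.90 of that of Psmb5 in WT at day 0 and 0.248% ± 0.159 in KO (SD, n = 3). At day 3 it was 13.9% ± 3.31 in WT and 2.51% ± 0.519 in KO. Psmb10 stood at 41.7% ± 18.3 of Psmb7 in WT and 13.5% ± 1.82 in KO at day 0, and at 42.0% ± 3.50 and 30.1% ± 4.70 at day 3. The ratio of Psmb9 to Psmb6 was low in all samples, from 0.144% in KO replicate 3 of day 0 to 1.05% in WT replicate 2 of day 3.

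**Figure D4:**
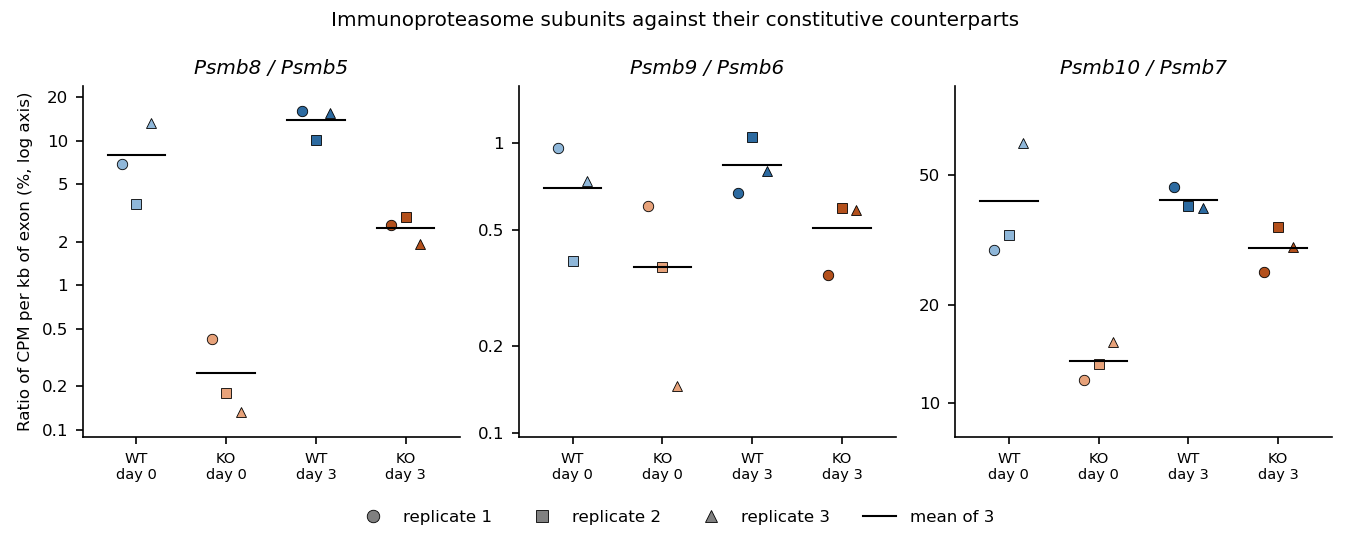
Levels of 3 immunoproteasome subunits as a percentage of their constitutive counterparts, per kb of exon, on log axes with different ranges. Points are replicates and bars are group means; for Psmb8 the KO mean was 0.248% at day 0 and 2.51% at day 3, against 7.98% and 13.9% in WT.

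Factors that act on class I promoters did not move in 1 direction. Of 13 listed, 12 were tested, and 2 fell and 2 rose at day 0, while 2 fell and 2 rose at day 3. The shares of all tested genes were 10.9% lower and 9.56% higher at day 0, and 16.7% and 14.3% at day 3. Irf1, an interferon-responsive activator, had 36.2, 28.0 and 66.4 CPM in WT at day 0 and 24.0, 13.7 and 20.4 in KO, a change of -1.16 on the log2 scale (adjusted p = 0.0241 in edgeR, standard error 0.31), a call lost without WT replicate 3 or KO replicate 2 or 3 of that day, with adjusted p up to 0.103. Rfx5, the DNA-binding subunit of the complex with which NLRC5 works, fell by 0.47 (standard error 0.13, adjusted p = 0.0305), a call lost in 6 of the 12 such fits. Nfkb1 rose by 0.64 (standard error 0.15, adjusted p = 0.0137), which was lost without KO replicate 2 of day 0. At day 3 Irf2 had 4.34, 4.62 and 5.48 CPM in WT and 1.25, 0.80 and 0.96 in KO, a change of -2.25 on the log2 scale (standard error 0.33, adjusted p = 0.00098), a call that held in every fit that left out 1 library. Atf1 rose by 0.31 (standard error 0.08, adjusted p = 0.0176) at day 0, lost without WT replicate 1 or 3 or KO replicate 3 of that day, and by 0.56 (standard error 0.08, adjusted p = 0.000672) at day 3. Rfxank fell and Nfyb rose at day 3, by 0.59 (standard error 0.16) and 0.39 (standard error 0.07), the former lost without WT replicate 2 or 3 or KO replicate 2 or 3 of that day, with adjusted p up to 0.127 in edgeR. Ciita, the class II counterpart of Nlrc5, reached at most 0.24 CPM in any sample and was not tested.

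No interferon transcript was detected for the genes looked at: Ifng and Ifnb1 had 0 counts in all 12 samples, which allows up to 0.17 CPM in the smallest library. Of 10 tested genes for receptors, kinases and their partners, Stat2 fell and Tyk2 rose at day 0, both calls lost in several of the fits that left out 1 library, and 4 fell at day 3. Among all tested genes 10.9% fell and 9.56% rose at day 0, and 16.7% fell at day 3. The interferon gamma receptor chain Ifngr1 fell by 1.01 (standard error 0.20, adjusted p = 0.00421 in edgeR) and the kinase Jak2 by 1.05 (standard error 0.20, adjusted p = 0.00384) at day 3, and Ifnar2 and Jak1 by 0.93 (standard error 0.23) and 0.39 (standard error 0.09). Without KO replicate 3 of day 3 the calls for Ifnar2 and Jak1 were lost, and without WT replicate 3 that for Ifnar2, with adjusted p up to 0.0843 in edgeR.

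Genes commonly induced by interferon both fell and rose. Of 12, all tested, 6 fell and 1 rose in KO cells at day 0, and 6 fell and 2, Ifit3 and Rsad2, rose at day 3. For all tested genes the shares were 10.9% and 9.56% at day 0, and 16.7% and 14.3% at day 3. The guanylate-binding protein genes Gbp2 and Gbp3 fell most at day 0 and Usp18 at day 3. Gbp2 had 67.8, 37.0 and 119 CPM in WT at day 0 and 7.79, 2.04 and 3.78 in KO, a change of -4.11 on the log2 scale (adjusted p = 0.000333 in edgeR, standard error 0.43), and -2.04 (standard error 0.39, adjusted p = 0.00365) at day 3. Gbp3 fell by 4.24 at day 0 (standard error 0.38, adjusted p = 0.000189) and Irgm1, an immunity-related GTPase, by 3.04 (standard error 0.41, adjusted p = 0.0011). Ifit3 rose at day 0 from 1 or 2 reads in each WT library, a ratio of 23.9 with a 95% interval of 9.01 to 89.4 for counting error alone (adjusted p = 0.0059), a call lost without WT replicate 3 of that day. The day 3 rises were lost without WT replicate 3 or KO replicate 2 of that day for Ifit3 and in 5 of the 12 fits that left out 1 library for Rsad2. At day 3 Usp18, a negative regulator of interferon signalling, had 1.17, 1.20 and 3.05 CPM in WT and 0.05, 0.06 and 0.29 in KO (adjusted p = 0.000756 in edgeR). Usp18 passed the filter on low values only through WT at day 3, Isg15 only through WT libraries, and Ifit3 only through KO libraries. Isg15 is among the genes counted as lower at both days. Each was thus tested only because of the group in which it is high, and its calls are given as a description.

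Replicates of one group carried the same ranking across several of these genes. In WT at day 0, replicate 2 was the lowest sample for 9 of the 10 class I genes and replicate 3, the library with the most T, the highest for 6. Without the latter the median KO effect of the 10 genes at day 0 was -1.03. The summed level of the 12 interferon-induced genes in these WT samples was 172, 126 and 278 CPM in replicates 1, 2 and 3. In KO at day 0 replicate 1 was the highest for 7 of the 10, and the interferon-induced sum was 56.7, 35.8 and 50.8 CPM. The day 3 sums lay between 135 and 208 CPM in WT and between 87.1 and 98.7 CPM in KO. Their part in the class I differences was not tested.

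Feeder fibroblasts express class I genes too, and fewer cells of a type and less RNA per cell cannot be told apart in bulk samples. The 10 fibroblast markers (Col1a1, Col1a2, Col3a1, Dcn, Lum, Postn, Thy1, Pdgfrb, Prrx1 and Twist2) summed to 81.9, 250 and 126 CPM in WT and 121, 332 and 206 CPM in KO at day 0. They were thus higher in the KO sample of each pair, and highest in replicate 2 of both genotypes. None of the 9 tested passed as changed at day 0 in edgeR, with 3 at an unadjusted p under 0.05, and limma-voom called 0 and DESeq2 1. At the later day the sums lay between 45.5 and 74.6 CPM in WT and between 39.99 and 81.3 CPM in KO, with 3 markers called lower and 3 higher. At that day 16.7% of all tested genes were called lower and 14.3% higher. Leukocyte markers, of cells that carry much class I, summed to between 7.70 and 14.5 CPM at day 0 and between 1.01 and 3.25 CPM at day 3, with 6 of 9 below 1 CPM in all samples of either genotype at day 0.

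**Figure D5:**
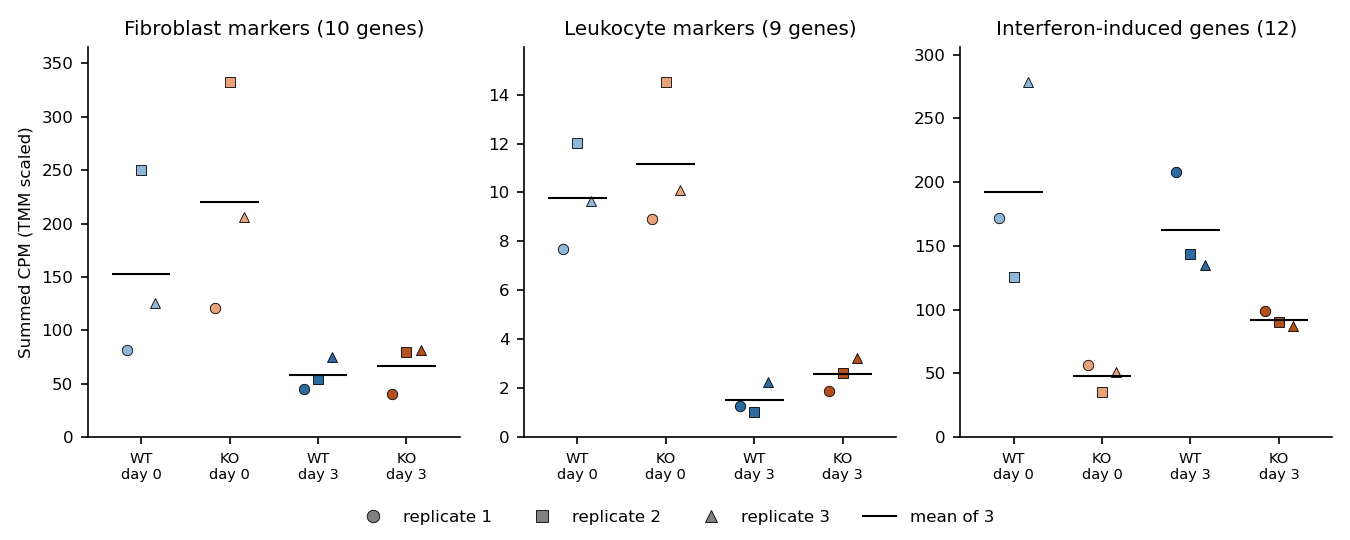
Summed CPM of 10 fibroblast markers, 9 leukocyte markers and 12 interferon-induced genes in every sample, on linear axes from 0. Points are replicates and bars are group means; the fibroblast sum is highest in replicate 2 of both genotypes at day 0, and the interferon-induced sum lies between 126 and 278 CPM in WT and between 35.8 and 56.7 CPM in KO at that day.

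MHC class II and PRC2 genes were listed as further points of reference. For these lists too, 10.9% of all tested genes fell and 9.56% rose at day 0, and 16.7% fell at day 3. Of 9 class II genes, 5 had enough reads, of which H2-DMb1 fell at day 0 and H2-Oa and Cd74 at day 3. The call for H2-DMb1 was lost in 5 of the 12 fits that left out 1 library, with adjusted p up to 0.114 in edgeR, and with DESeq2, and that for H2-Oa without KO replicate 3 of day 3. H2-DMb1 passed the filter on low values only through WT libraries, and H2-Oa only through WT replicate 3 of day 3. WT is the side on which both are called higher. Cd74, the invariant chain, fell by 1.58 (standard error 0.35, adjusted p = 0.00822 in edgeR). Polycomb repressive complex 2 is known to silence class I genes in several cell types. Of its 5 subunits, Eed rose by 0.53 (standard error 0.09, adjusted p = 0.00415) and Ezh2 by 0.21 (standard error 0.06, adjusted p = 0.0392) at day 0, and Ezh1 fell by 0.69 (standard error 0.19, adjusted p = 0.0307). Eed held in each fit that left out 1 library, whereas Ezh2 was lost in 10 of the 12 and Ezh1 in 4.

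Protein-coding genes that start within 50 kb of the 7 chromosome 17 members gave a view of the region. Of 23 such genes 19 were tested, of which H2-DMb1 fell and Ddx39b rose in KO cells at day 0, and Daxx, Ddx39b and Platr17 rose at day 3. By comparison, 10.9% of all tested genes fell and 9.56% rose at day 0, and 14.3% rose at day 3. With 1 library left out the day 0 call for Ddx39b was lost in 7 of 12 fits and that for H2-DMb1 in 5, the day 3 calls for Daxx in 3 and Ddx39b in 2, and that for Platr17 in none. Their median log2 fold change was -0.01 at day 0 and 0.10 at day 3.

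Annotated exons of several of the 10 genes overlap with those of other genes. Tap1 and Psmb9 share 212 bases on opposite strands, Psmb8 and Tap2 share 498 and 165 bases with an antisense RNA, and Erap1 shares 834 bases with Cast on the opposite strand. Tapbp shares 149 bases with Zbtb22 on its own strand. The strand setting used in counting is not given in the sources used here, so reads from these stretches may have been left out as ambiguous or assigned to the partner.

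The genes most like Nlrc5 were found by the root mean square difference of log2 CPM over the 12 samples, after centring each gene. Psors1c2 came first at 0.287, followed by Parp14 at 0.394, Trim36 at 0.400, Plac8 at 0.408 and Trim30a at 0.423. The other genes of the 10 were less close, with Tapbp at rank 55 and Tap1 at rank 87 the nearest to Nlrc5. The farthest of them were Erap1 at rank 9209 and Psmb8 at rank 13832. For H2-K1 the closest were Galnt12 at 0.212, Stbd1 at 0.213, Rnf130 at 0.216, Atxn1l at 0.256 and Plbd1 at 0.270. Of the 10 genes, H2-D1 and Tap1 came nearest to H2-K1 at ranks 34 and 36, and Nlrc5 and Psmb8 farthest at ranks 3242 and 13158. The 12 samples share groups and replicate numbers, so these values describe likeness of pattern only.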

How the data were processed

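Polyadenylated RNA was sequenced from 12 samples. Per the submitters' notes and the study's methods, the authors trimmed reads (Cutadapt 1.3), aligned them to GRCm38 (STAR 2.4.2a) and counted them per Ensembl gene (HTSeq 0.6.1). The deposited values are these raw counts. Reads aligned to several places, 36.52% to 44.09% of alignments, are not counted. Labels and methods name different sequencer models and extraction kits. Intervals cover counting error only.

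From these counts, genes above 1 CPM in at least 1 sample (15673 of 46517) entered an edgeR 4.0.16 fit (R 4.3.3): quasi-likelihood test, TMM normalization, 4 groups, all 12 samples, and the replicate number as a block, as the authors' own model had a term for batch. A gene above 1 CPM in 1 group only entered the tests through that group. Benjamini-Hochberg adjustment ran over all tested genes. Standard errors come from the log2 fold change and F statistic. Deviations from the group mean went together in WT and KO samples of 1 day and 1 number (r between 0.318 and 0.677 over 6 pairs), so the labels' numbers pair samples within a day. Between days r lay between -0.208 and 0.0585. The block of this fit is shared by both days, a pairing over days that these values do not show. Standard errors and adjusted p rest on it, and the closing section gives other blocks. One gene of the list of promoter factors is not reported here. The members, lists and motifs were chosen with earlier results of these data known. From each other list, every called gene was eligible for naming, or the 4 with the largest change where more passed. Other listed or neighbouring genes are named where few passed, chosen after their values were seen. Tested on simulated data, edgeR recovered 92 of 98 genes changed by 1 and 102 of 102 changed by 2 on the log2 scale at day 0, with 5 wrong calls among 15673. The simulation gave every gene the same small spread and no replicate effect, and changed only genes with enough reads. It does not show how scattered or rarely counted genes such as Psmb8 are recovered. Alternatives used limma 3.58.1 and DESeq2 1.42.0; the closing section gives their effect. Tables and figures used Python 3.11.15, pandas 2.3.3, numpy 2.4.6, scipy 1.17.1 and matplotlib 3.10.9.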

Additional observations from a re-analysis of the deposited data

Results flagged for a closer look

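In 15 named cases outside the 10, the KO effect of day 3 minus that of day 0 passed its own test (edgeR, adjusted over all tested genes). Naming stopped at 4 genes per list, so 15 is not the number of calls. By list, 3 of 13 heavy chains, 6 of 15 genes of peptide supply and 1 of 14 20S subunits passed. So did 1 of 12 promoter factors, 2 of 10 receptor and kinase genes and 5 of 12 interferon-induced genes. No class II or PRC2 gene passed, and 15.5% of all tested genes did. Among the heavy chains the difference was 4.25 on the log2 scale for H2-Q2 (adjusted p = 0.00382), whose KO effect changed sign between the days. It was 1.88 for H2-T10 (adjusted p = 0.0435) and 1.25 for H2-T22 (adjusted p = 0.0149). Among genes of peptide supply it was 1.13 for Psmb10 (adjusted p = 0.0479), 0.97 for Psme1 (adjusted p = 0.0118), 0.95 for Psme2 (adjusted p = 0.0457) and -0.96 for Lnpep (adjusted p = 0.017). The 20S subunit Psma7 had 0.49 (adjusted p = 0.0191). Among regulators and signalling genes it was -0.96 for Nfkb1 (adjusted p = 0.0134), 0.59 for Stat2 (adjusted p = 0.0476) and -0.54 for Jak1 (adjusted p = 0.0197). The interferon-induced genes had -4.08 for Usp18 (adjusted p = 0.00986), 2.4 for Gbp3 (adjusted p = 0.0117), 2.07 for Gbp2 (adjusted p = 0.0319) and 1.87 for Irgm1 (adjusted p = 0.044). Usp18 was tested only because of its level in WT at day 3. In 7 of the 15 cases, H2-Q2, H2-T22, Psme1, Lnpep, Nfkb1, Usp18 and Gbp3, the call held in each of the 12 fits that left out 1 library, although that for Lnpep was lost with no replicate block (adjusted p = 0.0843). H2-T10, Psmb10 and Stat2 lost it in 10 of those fits.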

How the results depend on the processing

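The medians of the 10 genes kept their direction under each alternative. At day 3 the KO median was -1.01 without WT replicate 2 of that day. Over fits that left out 1 library the medians ran from -1.67 to -0.99 for KO against WT at day 0, from -1.34 to -1.01 at day 3, from 0.43 to 1.03 for the days in WT and from 0.62 to 0.78 in KO. Single values changed sign only for the days: Tapbp in WT ran from -0.044 without replicate 2 of WT at day 0 to 0.48 (-0.041 without replicate 1 of WT at day 3), Psmb9 in WT from -0.045 without replicate 2 of WT at day 0 to 0.59, and Psmb9 in KO from -0.038 without replicate 3 of KO at day 0 to 0.89.

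For the other class I lists, a minimum log2 fold change of 1 cut the calls from 17 to 9 for KO against WT at day 0, from 9 to 5 at day 3, from 16 to 10 for the days in WT and from 9 to 4 for the difference between the days. Leaving out 1 library gave 9 to 16, 5 to 13, 9 to 16 and 5 to 8 calls, and 14 to 19 for the days in KO. The count for the days in WT was 9 without replicate 2 of WT at day 3 and 10 without replicate 2 of WT at day 0, and that for the difference was 5 without replicate 3 of WT at day 0, replicate 2 of KO at day 0 or replicate 1 of KO at day 3. Only the 6 samples of day 3 gave 18 calls there.

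On the pairing, a replicate block within each day gave 20 calls at day 0, 16 at day 3 and 10 for the difference. No replicate block gave 14, 9 and 5, with KO medians of -1.21 and -1.22. A block within each day was not run for the day contrasts, since it is part of the day difference. Across the named tested genes no call reversed; 38 values under other settings and 202 with 1 library left out lost a call, and the cause was not tested. Another scaling moved the median of all genes by less than 0.1. Few reads limited Nlrc5, Psmb9 and, in KO at day 0, Psmb8 and Tap2. Neither clonal origin nor cell composition could be separated from genotype, and protein levels were not measured.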
